A study of Mus musculus with 4 samples.

Results

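Cadherins and protocadherins, the calcium-dependent adhesion proteins that cells use to recognise and hold on to each other, were followed as UMI counts (unique molecular identifiers, which count captured RNA molecules once each) in single cells of the embryonic mouse forebrain. The genes were taken by symbol, every Cdh followed by digits alone and every Pcdh, which gave 80 genes of the 43346 in the count tables. Of these, 18 reached 10 or more counts-per-million (CPM) in at least 1 of the summed profiles described below, and 62 stayed under that level, 5 of them without a single UMI in any sum. The cells came from C57BL/6 embryos of wild-type genotype (wt) at E12.5, with no transgene, deletion or treatment in any group, and tissue was pooled over embryos. According to the study, the ventral eminences were by then several days into neurogenesis, while the dorsal cortex held mostly progenitors. There was 1 library for each of the dorsal cortex (CTX), the lateral eminence (LGE), the medial eminence (MGE) and the caudal eminence (CGE) of the ventral forebrain, so no region had a replicate and the region, the library and the dissection cannot be told apart. Within each library, cells rich in Nes, an intermediate filament gene of ventricular zone progenitors, and cells rich in Dcx, a microtubule gene of young neurons, were summed separately, with the limit for both set at a natural log of (1 + UMIs per 10000) above 1.5.

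Classical cadherins (types I and II) bind the same or a related cadherin on the next cell through their outer domains and reach the actin cytoskeleton through catenins, and in the ventricular zone they hold progenitors together at apical junctions. Delta-protocadherins adhere more weakly, and several of the delta-2 group recruit the WAVE complex, which drives actin branching. The clustered protocadherins lie in the Pcdha, Pcdhb and Pcdhg arrays on mouse chromosome 18, where single neurons choose few isoforms from many alternative promoters, and they are known for the self-recognition of neurites. Neurons of different brain divisions are known to carry different sets of these proteins, and such sets are often called adhesion codes.

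The libraries held from 4301 to 6953 barcodes and from 31451467 to 49794765 UMIs, and from 3193 to 4733 cells were kept after filtering. There were 901, 653, 541 and 179 high-Nes cells in CTX, LGE, MGE and CGE, and their sums held 7744429, 5466561, 5170242 and 1593126 UMIs. High-Dcx cells numbered 796, 2119, 2204 and 2292 in the same order, with 6741584, 14829603, 14673677 and 15950942 UMIs. Cells past both limits, from 17 to 72 in a library, were counted in both sums for the levels and left out of the test between the classes. The classes were checked against their markers: 6 of 8 progenitor markers passed the test of that comparison on the high-Nes side and 7 of 7 neuron markers on the high-Dcx side. Nes and Dcx are among these 6 and 7 and were fixed by the limits, and the other markers were measured in the same cells. The CTX high-Dcx cells held a UMI of Neurod2, Neurod6, Tbr1 or Eomes, genes of glutamatergic neurons, in 745 cells or 93.6%, against 124 cells in CGE, 33 in LGE and 4 in MGE. The 6 GABAergic markers summed to 59.0 CPM in CTX high-Dcx cells and to between 2089 and 2635 CPM in the eminences, so the young neurons of CTX and of the eminences were of different types. Pairs of libraries shared from 4 to 15 barcodes. All intervals below are 95% intervals of counting error only, and they do not cover the spread between embryos or libraries.

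The genes at 10 or more CPM were mostly classical cadherins and delta-protocadherins (the heat map of CPM by library and class). The type I cadherins Cdh2 (N-cadherin) and Cdh4 (R-cadherin) reached 10 CPM out of 5, the type II cadherins Cdh7, Cdh8, Cdh10, Cdh11 and Cdh22 out of 13, and Cdh13, the cadherin held in the membrane by a lipid anchor, was the only one of the 5 other cadherins. All 4 delta-1 protocadherins (Pcdh1, Pcdh7, Pcdh9 and Pcdh11x) and all 5 delta-2 protocadherins (Pcdh8, Pcdh10, Pcdh17, Pcdh18 and Pcdh19) passed. None of the 3 other non-clustered protocadherins did, and of the 45 clustered genes only Pcdhgc4. Its 3-prime exon is shared with 16 other annotated genes, so that its counts and those of its neighbours are uncertain. The lowest of the genes that passed were Cdh10, whose highest sum was 13.1 CPM, Pcdh11x with 16.8 CPM and Pcdh1 with 17.0 CPM, and the nearest below were Pcdhgb4 with 9.03 CPM, Pcdhb17 with 8.97 CPM and Pcdhb7 with 8.65 CPM. Cdh2 (chr18:16588877-16809246, minus strand) was present in every sum at 167 to 250 CPM. Cdh1 (E-cadherin), Cdh16, Cdh19, Cdh26 and Pcdhb1 had 0 UMIs in all 8 sums. In the GENCODE M21 annotation 14 of the 18 genes overlap a gene on the opposite strand, and Cell Ranger, which made the counts with its default settings from 3-prime libraries, counts by strand. A gene on the same strand overlaps 7 of the 18 (Pcdh7, Pcdh9, Pcdh11x, Pcdhgc4, Cdh8, Cdh11 and Cdh13), and the counts of these are uncertain to that extent.

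**Figure D1:**
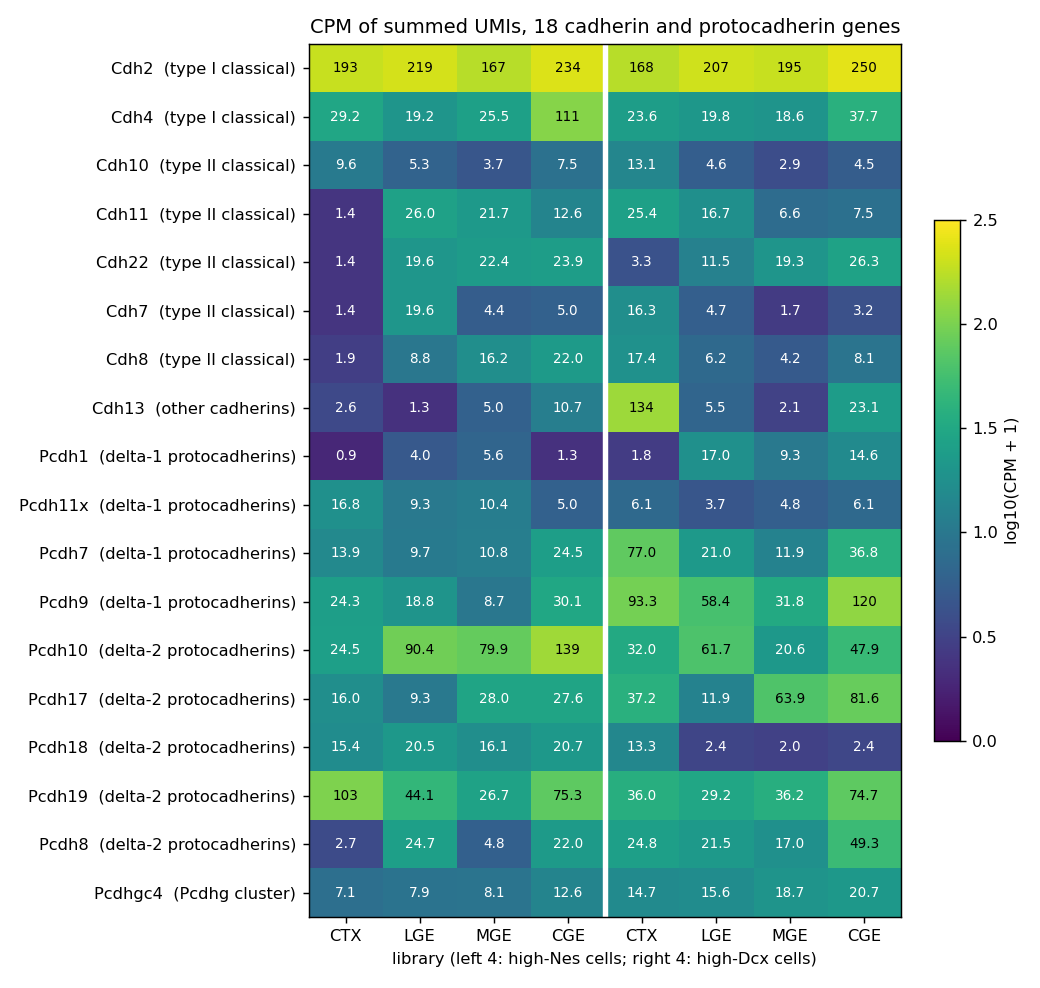
CPM of summed UMIs for the 18 genes at 10 or more CPM, with high-Nes cells in the left 4 columns and high-Dcx cells in the right 4 columns, 1 column per library, coloured by log10(CPM + 1). Cdh2 lies between 167 and 250 CPM throughout, Cdh4 stands out in CGE high-Nes cells at 111 CPM, and Cdh13 in CTX high-Dcx cells at 134 CPM.

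Promoters are shown for 4 genes on which the comparisons below turn: Pcdh18 and Pcdh17, delta-2 protocadherins with opposite changes between progenitors and young neurons, and Pcdh10 and Cdh8, whose change differed in direction between CTX and the eminences. Each runs from 250 bases before to 50 bases after the start of the gene, 5′ to 3′ on the strand of the gene, from RefSeq on GRCm38.p6, and capitals mark CG dinucleotides (CpG). The windows are Pcdh18 (chr3:49757267-49757566, minus strand), Pcdh17 (chr14:84443313-84443612, plus strand), Pcdh10 (chr3:45378148-45378447, plus strand) and Cdh8 (chr8:99416422-99416721, minus strand).
Pcdh18: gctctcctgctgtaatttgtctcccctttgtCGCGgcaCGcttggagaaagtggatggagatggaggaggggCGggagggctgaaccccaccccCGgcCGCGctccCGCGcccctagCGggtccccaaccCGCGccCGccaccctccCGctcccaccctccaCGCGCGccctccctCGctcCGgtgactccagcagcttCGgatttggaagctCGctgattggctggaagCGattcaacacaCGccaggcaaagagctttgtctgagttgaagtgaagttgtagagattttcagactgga
Pcdh17: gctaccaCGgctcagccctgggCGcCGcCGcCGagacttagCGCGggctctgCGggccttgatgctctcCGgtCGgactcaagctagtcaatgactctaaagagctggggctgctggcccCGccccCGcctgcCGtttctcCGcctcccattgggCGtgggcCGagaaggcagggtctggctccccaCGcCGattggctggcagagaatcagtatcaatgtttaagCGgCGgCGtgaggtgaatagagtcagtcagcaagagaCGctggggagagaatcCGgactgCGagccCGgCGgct
Pcdh10: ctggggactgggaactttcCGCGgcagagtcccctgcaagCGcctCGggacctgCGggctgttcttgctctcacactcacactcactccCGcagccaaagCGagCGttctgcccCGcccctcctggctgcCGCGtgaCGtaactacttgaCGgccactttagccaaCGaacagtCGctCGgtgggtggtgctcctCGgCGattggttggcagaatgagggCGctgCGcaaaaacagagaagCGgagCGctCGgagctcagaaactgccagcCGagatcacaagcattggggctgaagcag
Cdh8: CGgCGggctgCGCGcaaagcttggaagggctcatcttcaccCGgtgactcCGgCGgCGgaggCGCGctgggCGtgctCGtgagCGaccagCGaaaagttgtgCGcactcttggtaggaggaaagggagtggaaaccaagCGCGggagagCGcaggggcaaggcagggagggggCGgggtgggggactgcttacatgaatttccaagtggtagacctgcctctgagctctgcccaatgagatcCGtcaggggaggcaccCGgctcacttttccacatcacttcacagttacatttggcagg
These windows held 23, 26, 24 and 21 CpG, while the median over 32851 promoters of this length was 7 and 26.5% held 20 or more. Promoters were matched for 11 of the 18 genes, at 14 starts, and 5 of the 14 held 20 or more CpG. Short motifs were searched on both strands. CAGCTG was in 16.3% of all such promoters, while TAATTA was in 5.29% and TATAAA in 13.6%, and none of them occurred in the printed windows.

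Within progenitors, Cdh4 was highest in CGE and Cdh7 in LGE, while the CTX high-Nes sum held little of several type II cadherins that every eminence sum carried. In high-Nes cells 2 of the 16 genes at 10 or more CPM in this class had a highest library at least 2 times the next (with 1 CPM added to each level), against 3.47% of all 9486 genes at that level. The 10 CPM limit lets a gene in through the library where it is high, for these genes as for all others. Among the 3 eminences alone, Cdh4, Cdh7 and Pcdh7 did so, 3 of 16 against 2.54%. With 10 CPM added to each level in place of 1, Cdh4 alone stood apart, with and without CTX.

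Cdh4 (chr2:179442431-179899373, plus strand) was at 29.2, 19.2, 25.5 and 111 [95.3–129] CPM in CTX, LGE, MGE and CGE high-Nes cells. The CGE level was 3.81 times [3.11–4.66] that of CTX, the next highest, and CTX and MGE did not differ beyond counting error, with a ratio of 1.14 [0.918–1.43]. After each cell had been thinned to 3000 UMIs, 27.6% [21.1–34.9] of 174 CGE high-Nes cells had a Cdh4 UMI, against 8.37% of 872 in CTX, 4.91% of 632 in LGE and 7.28% of 536 in MGE. Erythroid barcodes of the same libraries, which should lack neural cadherins, had a Cdh4 UMI in 1.39% of 144 in CTX and in 0 of 56 in LGE and 0 of 53 in MGE, which allows shares of up to 5.36% and 5.66%, and CGE had too few such barcodes. The 10 microglial markers summed to 203 CPM in CGE, 35.1 in CTX, 1.28 in LGE and 84.7 in MGE high-Nes cells, and with non-neural cells removed Cdh4 was at 113 CPM in CGE. The CGE value rests on 179 cells of 1 library.

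Cdh7 (chr1:109982431-110140157, plus strand), a type II cadherin, was at 1.42, 19.6 [16.0–23.7], 4.45 and 5.02 CPM in CTX, LGE, MGE and CGE high-Nes cells. LGE was 3.90 times [1.91–9.26] CGE, and MGE and CGE overlapped. A Cdh7 UMI was found in 5.22% of thinned LGE cells and in 0.344% to 1.49% in the other libraries. Pcdh7, a delta-1 protocadherin, was at 24.5 CPM in CGE against 9.70 in LGE and 10.8 in MGE, and CTX was at 13.9 CPM, so that it did not stand apart once CTX was included.

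Taken the other way, 5 of the 16 genes had their lowest level in CTX by at least 2 times, against 2.95% of all genes, a comparison added after the values were seen. They were Pcdh10 and the type II cadherins Cdh7, Cdh8, Cdh11 and Cdh22. Pcdh10 (chr3:45378398-45435623, plus strand), a delta-2 protocadherin that binds the WAVE complex, was at 24.5, 90.4, 79.9 and 139 [121–158] CPM in CTX, LGE, MGE and CGE. It was found in 33.3% [26.4–40.9] of thinned CGE cells and in 7.22% [5.60–9.15] in CTX. Cdh11 was at 1.42, 26.0, 21.7 and 12.6 CPM in CTX, LGE, MGE and CGE, and LGE and MGE did not differ beyond counting error. Cdh22 was at 1.42 CPM in CTX and between 19.6 and 23.9 CPM in the eminences, whose intervals overlapped in every pair. Cdh8 was at 1.94, 8.78, 16.2 and 22.0 CPM in CTX, LGE, MGE and CGE, with MGE and CGE overlapping. The high-Nes sums also differed in their other markers. A UMI of Neurod2, Neurod6, Tbr1 or Eomes was found in 293 of the 901 CTX cells or 32.5%, against 0.613%, 0.555% and 3.91% in LGE, MGE and CGE. The glutamatergic markers summed to 467 CPM in CTX against 0.580 to 42.7 CPM in the eminences, the GABAergic ones to 3.74 against 700 to 1232 CPM, and the neuron markers to 382 against 730 to 1120 CPM. The 8 progenitor markers, with Nes among them, summed to 11095 CPM in CGE against 4356, 5176 and 6048 CPM in CTX, LGE and MGE. Those of pericytes or mesenchyme summed to 86.0 CPM in CGE against 20.9 to 36.8 CPM in the other libraries. The part of these marker differences in the high-Nes levels, those of CGE included, was not tested.

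Highest in CTX instead was Pcdh19, an X-linked delta-2 protocadherin (chrX:133582860-133688987, minus strand), which was at 103 [96.4–111], 44.1, 26.7 and 75.3 [62.5–90.1] CPM in CTX, LGE, MGE and CGE high-Nes cells. Pcdh11x was also highest in CTX, at 16.8 CPM against 5.02 to 10.4 CPM. Pcdh17 was at 28.0 CPM in MGE and 27.6 in CGE, a ratio of 1.02 [0.72–1.46], and at 16.0 in CTX and 9.33 in LGE. Pcdh9 was at 24.3, 18.8, 8.70 and 30.1 CPM in CTX, LGE, MGE and CGE, but the CGE level was 14.8 CPM without the 17 cells that passed both limits. Pcdh18 lay between 15.4 and 20.7 CPM in the 4 libraries, and Cdh2 between 167 and 234 CPM. CGE held the highest level of 10 of the 16 genes, against 30.8% of all genes, but for 6 of the 10 (Cdh2, Cdh8, Cdh22, Pcdh9, Pcdh18 and Pcdhgc4) the interval of the ratio to the next library held 1.

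**Figure D2:**
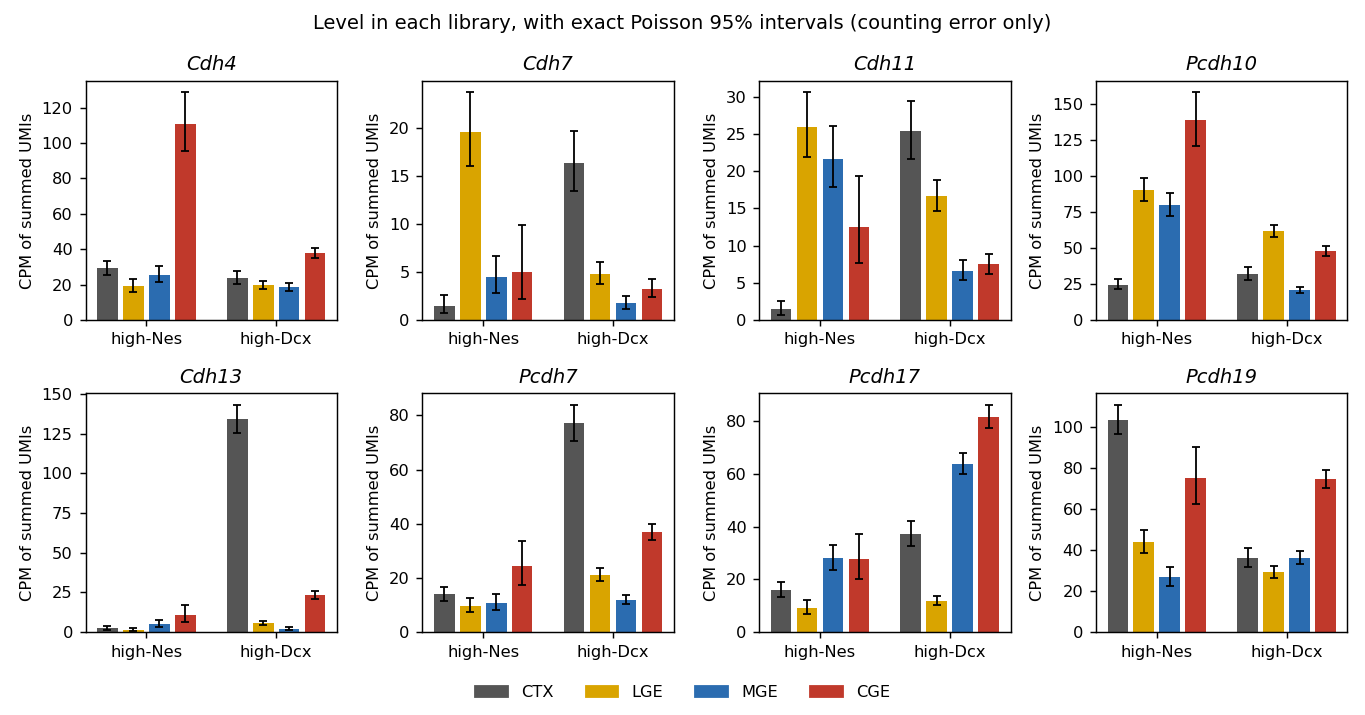
CPM of 8 genes in each library, for high-Nes and high-Dcx cells, with bars starting at 0 and exact Poisson 95% intervals of counting error. In high-Nes cells Cdh4 is highest in CGE (111 CPM) and Cdh7 in LGE (19.6 CPM), and in high-Dcx cells Cdh13 (134 CPM) and Pcdh7 (77.0 CPM) are highest in CTX.

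Among young neurons several genes were highest in CTX, led by Cdh13, and within the eminences CGE most often held the highest level. In high-Dcx cells 7 of 17 genes had a highest library at least 2 times the next, against 6.44% of all 9368 genes. Of these, 6 were highest in CTX (Cdh7, Cdh8, Cdh10, Cdh13, Pcdh7 and Pcdh18), where 3.98% of all genes were, and Pcdh19 was highest in CGE, where 0.779% were. Cdh7, Cdh8, Cdh10 and Pcdh18 reached 10 CPM in this class in CTX alone. They thus entered the count through the library where they were high, and the count is a description. Among the 3 eminences, 5 of 13 genes had a highest library at least 2 times the next, against 3.99%: Cdh11 in LGE (1.58% of all genes), and Cdh13, Pcdh8, Pcdh9 and Pcdh19 in CGE (1.78%). The CTX sum came from glutamatergic and the eminence sums mostly from GABAergic cells, so region and neuron type cannot be told apart in the count over the 4 libraries. Postmitotic and cycling cells (defined below) numbered 1600 and 129 in CGE, 769 and 512 in LGE and 1109 and 292 in MGE. Cdh13, Pcdh8 and Pcdh19 were higher in postmitotic cells of each library, while Pcdh9 was lower in those of LGE. The part of this in the CGE levels was not tested. With 10 CPM added to each level, Cdh13 alone stood apart, with and without CTX.

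Cdh13 (T-cadherin, chr8:118283733-119324921, plus strand) was at 134 [125–143], 5.53, 2.11 and 23.1 [20.8–25.6] CPM in CTX, LGE, MGE and CGE high-Dcx cells. CTX was 5.80 times [5.13–6.56] CGE, and CGE was 4.18 times [3.29–5.38] LGE. A Cdh13 UMI was found in 20.7% [17.9–23.8] of 781 thinned CTX cells, 5.67% of 2257 in CGE, 1.30% of 2079 in LGE and 0.418% of 2151 in MGE, against 0.694% of the CTX erythroid barcodes. Pcdh7 (chr5:57717967-58133230, plus strand) was at 77.0 [70.5–83.9] CPM in CTX, 36.8 in CGE, 21.0 in LGE and 11.9 in MGE. CTX was 2.09 times [1.86–2.36] CGE for this gene, close to the limit of 2. All 4 levels were apart beyond counting error, in the order CTX, CGE, LGE and MGE.

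Of the type II cadherins that were lowest in CTX progenitors, Cdh7, Cdh8 and Cdh11 were highest in CTX young neurons. Cdh7 was at 16.3 CPM in CTX against 1.70 to 4.72 CPM in the eminences, and Cdh8 at 17.4 against 4.16 to 8.09 CPM. Cdh11 was at 25.4, 16.7, 6.61 and 7.46 CPM in CTX, LGE, MGE and CGE. Cdh22 was the exception, at 3.26, 11.5, 19.3 and 26.3 CPM in CTX, LGE, MGE and CGE, and this order, lowest in CTX, held in progenitors too. Pcdh18 (chr3:49743296-49757325, minus strand) was at 13.3 CPM in CTX and between 2.04 and 2.38 CPM in the eminences, a ratio of 5.6 [3.80–8.42] to CGE.

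Several delta-protocadherins were highest in CGE young neurons. Pcdh19 was at 74.7 [70.5–79.0] CPM there and at 36.0 in CTX, 29.2 in LGE and 36.2 in MGE, and CTX and MGE did not differ beyond counting error, with a ratio of 0.996 [0.852–1.16]. The CGE level was 2.06 times [1.86–2.29] the next, close to the limit of 2, and Pcdh19 no longer stood apart among the 4 libraries with doublets kept, with TMM factors, with thinned cells, with no upper limit on genes per cell, with glutamatergic cells removed, with a limit of 2.0 for Nes and Dcx or with 10 CPM added. Pcdh8 (arcadlin, known to take N-cadherin off the cell surface) was at 49.3 CPM in CGE, 24.8 in CTX, 21.5 in LGE and 17.0 in MGE. Pcdh9 was at 120 [115–126] CPM in CGE, 93.3 in CTX, 58.4 in LGE and 31.8 in MGE. Pcdh17 (chr14:84443563-84539002, plus strand), which is known to steer axon bundles, was at 81.6 CPM in CGE and 63.9 in MGE, but at 37.2 in CTX and 11.9 [10.2–13.8] in LGE. Pcdh10 went the other way within the eminences, with 61.7 CPM in LGE, 47.9 in CGE and 20.6 in MGE, and CTX was at 32.0 CPM. Pcdh1, another delta-1 protocadherin, was at 1.78, 17.0, 9.34 and 14.6 CPM in CTX, LGE, MGE and CGE. CGE held the highest level of 8 of 17 genes, against 28.5% of all genes, and for Pcdhgc4 the interval of the ratio to the next library held 1.

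The highest library was the same in progenitors and in young neurons for some of these genes and differed for others. Of 15 genes at 10 or more CPM in both classes, 5 had the same highest library in both (Cdh2, Cdh4, Cdh22, Pcdh9 and Pcdhgc4, each in CGE), against 43.4% of all such genes. A change of highest library was thus common over all genes, and nothing particular to these 15 is read from the count. For Pcdh9 this did not hold without the cells past both limits, and in high-Nes cells Cdh4 alone of the 5 was above the next library beyond counting error. Pcdh19 was highest in CTX progenitors and in CGE young neurons, and Cdh7 in LGE progenitors and in CTX young neurons. Cdh4, at 37.7 CPM in CGE high-Dcx cells and 18.6 to 23.6 CPM in the others, kept CGE as its highest library at 1.6 times [1.34–1.92] the next. The ratio of the highest to the lowest library was at least 2 for 13 of 16 genes in high-Nes cells, where 16.0% of all genes reached it, and for 14 of 17 in high-Dcx cells, where 22.7% did.

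Some CTX levels came in part from a small group of cells of another type. The 51 CTX high-Dcx cells with no UMI of Neurod2, Neurod6, Tbr1 or Eomes had 1252 CPM of the 6 GABAergic markers, against 8.50 CPM in the 745 glutamatergic ones. This split was made after the data were seen. Pcdh19 was at 281 CPM (77 UMIs) in the 51 cells and 25.7 CPM (166 UMIs) in the 745, and Pcdh8 at 142 CPM (39 UMIs) and 19.8 CPM (128 UMIs). Cdh13 showed the reverse, with 18.3 CPM (5 UMIs) and 139 CPM (899 UMIs). Likewise the 124 CGE high-Dcx cells with such a UMI had 260 CPM of Pcdh9, against 111 CPM in the other 2168 CGE cells, a ratio of 2.34 [2.04–2.67]. In these CGE cells Cdh8 was at 28.4 against 6.75 CPM, Cdh4 at 98.4 against 33.7 CPM and Pcdh7 at 68.0 against 34.7 CPM, while Pcdh17 was lower, at 44.6 against 84.1 CPM. When glutamatergic cells of CTX were set against the other cells of the eminences, 7 genes again stood apart in high-Dcx cells, with Pcdh8 (in CGE) in place of Pcdh19.

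Within high-Dcx cells, Pcdh7, Pcdh8, Cdh13 and Pcdh19 were higher in postmitotic cells than in those still in the cell cycle, in each library. Cycling cells were those above 0.5, on the scale of the Nes and Dcx limits, in both Mki67 and Ccnd2, and postmitotic cells were below 0.5 in both. They numbered 112 and 288 in CTX, 512 and 769 in LGE, 292 and 1109 in MGE and 129 and 1600 in CGE. Pcdh7 was at 87.4 CPM in postmitotic and 45.5 in cycling cells of CTX, 40.7 and 3.01 in LGE, 21.9 and 3.35 in MGE, and 46.6 and 0.767 in CGE, the last on 486 and 1 UMIs, a ratio of 60.7 [10.8–2402]. Pcdh8 was 2.88 times [1.63–5.49] higher in postmitotic cells of CTX, 11.3 times [6.95–19.4] in LGE, 7.57 times [3.89–16.8] in MGE and 7.52 times [4.06–15.8] in CGE. Cdh13 was 2.30 to 9.79 times higher, the MGE value on 24 and 1 UMIs with an interval of 1.6 to 402, and Pcdh19 was 1.87 to 3.06 times higher. Pcdh18 was lower in them, at 0.849 against 6.01 CPM in LGE and 1.63 against 6.14 CPM in CGE, but the intervals of CTX, 0.757 [0.421–1.39], and of MGE, 0.408 [0.160–1.04], held 1. Pcdh9 differed in direction between libraries, with 43.5 against 82.0 CPM in LGE, a ratio of 0.530 [0.445–0.630], and a ratio above 1 in the other libraries, from 1.28 [1.07–1.55] in CGE to 2.14 [1.6–2.92] in CTX.

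**Figure D3:**
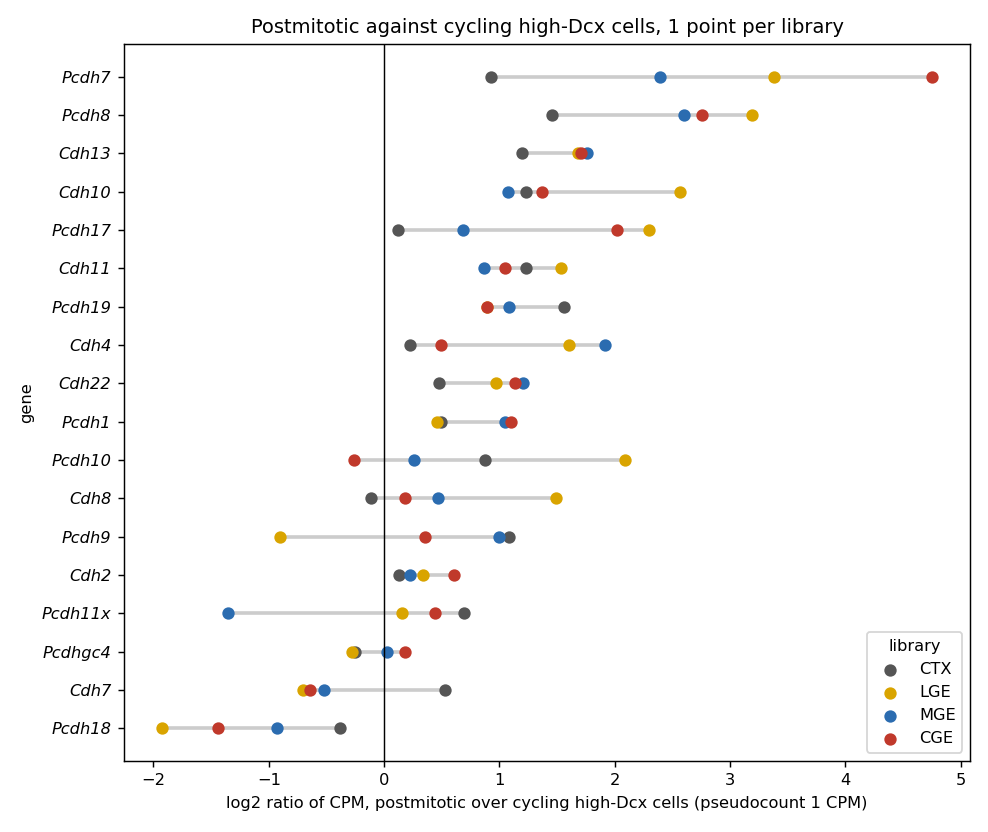
Log2 ratio of CPM in postmitotic over cycling high-Dcx cells for the 18 genes (pseudocount 1 CPM), 1 point per library and a grey bar from the lowest to the highest, with genes ordered by the mean of the 4 values. Pcdh7, Pcdh8, Cdh13, Cdh10 and Pcdh19 are among the genes right of 0 in every library, and Pcdh18 lies left of it.

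Young neurons held more Pcdh1, Pcdh7, Pcdh9, Pcdh17 and Pcdhgc4 than progenitors, and less Pcdh18 and Pcdh11x. High-Dcx sums were tested against high-Nes sums over the 4 libraries with edgeR (quasi-likelihood test, library as a block, 8 sums, Benjamini-Hochberg over 13341 genes, adjusted p below 0.05 and a log2 fold change of at least 0.25). Of the 18 genes, 5 were higher in high-Dcx cells and 2 in high-Nes cells, against 27.5% of all genes tested in each direction, so the first count lay near the share of all genes and the second below it. Of the delta families, 3 of 4 delta-1 members rose and 1 fell, with a median log2 fold change of 1.59 (0.0090 over all genes), and 1 of 5 delta-2 members rose and 1 fell, with a median of -0.35. Neither of the 2 type I members tested passed, by edgeR or DESeq2, at an adjusted or an unadjusted p below 0.05, and of 10 type II members tested 1 rose and 2 fell, with a median of -0.13.

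Pcdh9 (chr14:93013410-93890679, minus strand) rose by 2.24 ± 0.20 (log2 fold change ± SE, adjusted p = 5.7e-04, edgeR). Its CPM, without cells past both limits, was 24.3 in high-Nes and 94.9 in high-Dcx cells of CTX, 16.0 and 58.7 in LGE, 8.42 and 32.0 in MGE, and 14.8 and 119 in CGE, so that the lowest high-Dcx level was above the highest high-Nes level. Pcdh17 rose by 1.22 ± 0.21 (adjusted p = 0.0047, edgeR, or 0.065 without the library block) and was 2.37, 1.23, 2.41 and 3.05 times higher in high-Dcx cells of CTX, LGE, MGE and CGE, with the LGE interval [0.894–1.73] holding 1. Pcdhgc4 rose by 1.13 ± 0.16 (adjusted p = 0.0022, edgeR). Pcdh1 rose by 1.92 ± 0.51 (adjusted p = 0.021, edgeR), but the adjusted p was 0.097 without LGE. Its 7 UMIs in high-Nes cells of CTX left a level of 0.130 CPM when non-neural cells were removed. Pcdh7 rose by 1.26 ± 0.42 (adjusted p = 0.045, edgeR), from 5.98 times higher in CTX to 1.12 times [0.817–1.55] in MGE, and this call was lost without LGE (adjusted p = 0.12), without CGE (adjusted p = 0.075), without the block (adjusted p = 0.063), with a limit of 2.0 for Nes and Dcx (adjusted p = 0.057) and with cells thinned to 3000 UMIs (adjusted p = 0.054). All 5 were higher in high-Dcx cells in 4 of 4 libraries.

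Pcdh18 fell by 2.32 on the log2 scale (SE 0.60, adjusted p = 0.019, edgeR). It was at 15.4 CPM in high-Nes and 13.3 in high-Dcx cells of CTX, 22.1 and 2.30 in LGE, 16.2 and 1.93 in MGE, and 22.2 and 2.40 in CGE. The ratios of the 3 eminences ran from 0.104 [0.0684–0.155] to 0.119 [0.0745–0.185], and that of CTX was 0.867 [0.650–1.15]. Without LGE, MGE or CGE the adjusted p was 0.075, 0.080 or 0.079 (edgeR). Pcdh11x (chrX:120290259-120910619, plus strand) fell by 0.98 on the log2 scale (SE 0.31, adjusted p = 0.038, edgeR), in CTX, LGE and MGE but not in CGE, where the ratio was 1.15 [0.562–2.74], and the adjusted p was 0.079 without CTX, 0.14 without LGE, 0.13 without MGE and 0.079 with cells thinned to 3000 UMIs. Below 10 CPM, Cdh5 (VE-cadherin, of endothelial cells) fell by 4.60 and Cdh6 by 2.44 on the log2 scale (adjusted p = 0.018 and 0.035, edgeR). Non-neural cells were 8, 5, 5 and 2 of the high-Nes cells of CTX, LGE, MGE and CGE, and the markers of endothelial cells (8 of 8 tested), pericytes or mesenchyme (5 of 5) and microglia (10 of 10) were higher in high-Nes sums, the endothelial ones at 18.8 to 82.8 CPM against 4.09 to 8.96 CPM. With non-neural cells removed, the calls of Pcdh18 and Pcdh11x were kept. Of the 80 genes, 3 of 44 tested were then higher in high-Nes cells by edgeR, instead of 4 of 45. The call lost was that of Cdh5 or Cdh6, as 1 of them no longer had enough counts to be tested. Beyond this, the part of non-neural cells in these results was not tested.

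The 11 genes that passed in neither direction included some with large changes of opposite sign. Cdh11 was 19.6 times [10.4–41.6] higher in high-Dcx than in high-Nes cells of CTX, and 0.606 [0.491–0.751] times in LGE, 0.296 [0.221–0.395] in MGE and 0.559 [0.346–0.948] in CGE. Cdh8 showed 8.99 times [5.23–16.6] in CTX and from 0.25 to 0.680 times in the eminences. Pcdh10 showed 1.31 times [1.07–1.61] in CTX and 0.651, 0.25 and 0.329 times in LGE, MGE and CGE. These were 3 of the 18 genes, against 1.36% of 10353 genes with a CTX ratio opposite to that of each eminence and all 4 intervals clear of 1. Cdh7 was 17.4 times [8.18–44.4] higher in CTX and 0.221 and 0.374 times in LGE and MGE, with a CGE interval that held 1. Without CTX, edgeR called these 4 genes (Cdh7, Cdh8, Cdh11 and Pcdh10) higher in high-Nes cells, with log2 fold changes from -1.44 to -1.02 and adjusted p from 0.0077 to 0.018. The 4 were named for their ratios in the same eminence libraries, so these calls are a description and add no support. In that setting 5 of the 18 genes were higher in high-Nes cells, and 3740 of all 13680 genes tested. Cdh13 was 103 times [55.7–216] higher in high-Dcx cells of CTX, 5.56 times in LGE and 2.30 times in CGE, and 0.410 times [0.236–0.720] in MGE. Cdh2 had ratios from 0.870 to 1.16 and a log2 fold change of 0.10 ± 0.09 (adjusted p = 0.38, edgeR). Pcdh8 had a log2 fold change of 1.47 ± 0.55 (adjusted p = 0.066, edgeR, and 0.011 by DESeq2).

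**Figure D4:**
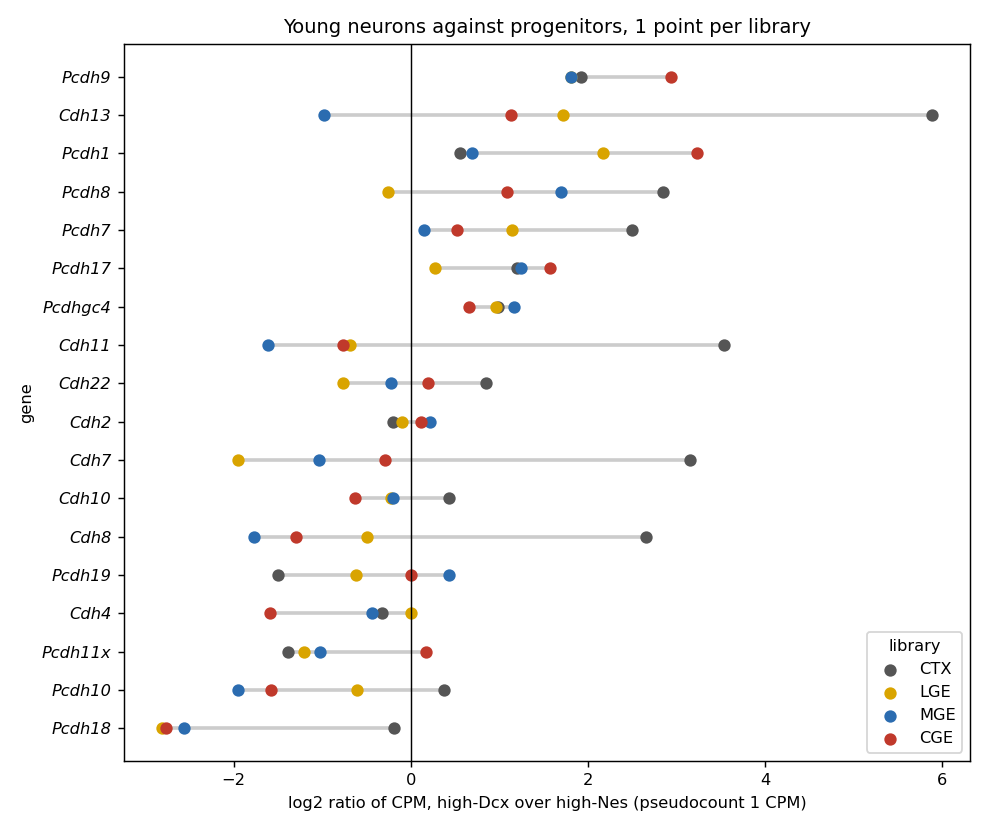
Log2 ratio of CPM in high-Dcx over high-Nes cells for the 18 genes (pseudocount 1 CPM, cells past both limits left out), 1 point per library and a grey bar from the lowest to the highest, ordered by the mean. Pcdh9 and Pcdhgc4 lie right of 0 in all 4 libraries, Pcdhgc4 with little spread and Pcdh9 furthest right in CGE. Cdh7, Cdh8, Cdh11 and Cdh13 in CTX lie far to the right of the eminences.

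The clustered protocadherins, low gene by gene, were higher as sums in young neurons of each library. Of the 22 Pcdhb genes, 10 had enough counts to be tested and all 10 were higher in high-Dcx cells by edgeR, with a median log2 fold change of 2.67, and both Pcdha genes tested (of 8) and 5 of 9 Pcdhg genes tested (of 15) were too, with a Pcdhg median of 1.00, where 27.5% of all genes tested were higher in high-Dcx cells. The filter on low counts lets such genes in mostly through the class where they are higher, so these counts are a description. Summed over all 22 genes, tested or not, Pcdhb was at 6.71 CPM in high-Nes and 36.1 in high-Dcx cells of CTX, 7.62 and 37.4 in LGE, 6.21 and 31.7 in MGE, and 5.37 and 56.1 in CGE. The ratios were 5.38 [3.96–7.43], 4.90 [3.52–7.0], 5.10 [3.54–7.59] and 10.4 [5.28–24.3], the last on 8 UMIs in high-Nes cells, and their intervals overlapped. The Pcdhg sum differed less, being higher by 1.81 [1.50–2.18], 1.71 [1.42–2.07], 2.27 [1.88–2.77] and 2.08 [1.54–2.86] times in the same order, and each of these intervals lay below the Pcdhb interval of its library. The Pcdha and Pcdhg genes counted share their 3-prime exon with 1 to 16 other annotated protocadherin genes, and the Pcdhb genes with none. Sharing with genes of other names was not looked up. Each Pcdhb gene is overlapped on its own strand by Gm37013, Gm37388 and Gm42416, so the Pcdhb counts are uncertain too. The clusters may thus not be counted alike in 3-prime libraries, and the part of this in the ratios was not tested. The Pcdha sum was at 4.40, 7.67, 5.11 and 9.84 CPM in high-Dcx cells, while high-Nes cells held 0, 3, 2 and 0 UMIs. The Pcdha and Pcdhg sums cover the 8 and 15 genes of the count tables, and GENCODE M21 holds others, such as Pcdhac2 and Pcdhgc3. In high-Dcx cells the CGE sum was the highest of the 4 for each cluster.

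Among single genes, the 10 members with the largest rise in the test were Pcdhb14, Pcdha4, Cdh12, Pcdhb5, Pcdhb19, Pcdha9, Pcdhb17, Pcdhb16, Pcdhb7 and Pcdhb20, each higher in 4 of 4 libraries. Pcdhb17 rose by 2.90 ± 0.30 (adjusted p = 8.5e-04, edgeR), on 313 UMIs in high-Dcx and 14 in high-Nes cells of the 4 libraries together. Pcdhb7 rose by 2.53 ± 0.47 (adjusted p = 0.0059, edgeR), on 342 and 22 UMIs. Pcdhb19 rose by 3.39 ± 0.45 (adjusted p = 0.0019, edgeR), on 188 and 7 UMIs. Pcdhb14 had 78 UMIs in high-Dcx and 0 in high-Nes cells, at least 9.66-fold higher against 3 counts over the group. The smallest counts gave wide ratios: Pcdha4 had 98 and 1 UMIs, 36.4 times [6.39–1453], and Cdh12, a type II cadherin, had 60 and 1 UMIs, 22.3 times [3.85–895]. Pcdhb5 had 110 and 2 UMIs, Pcdha9 91 and 3, Pcdhb16 104 and 5, and Pcdhb20 147 and 10.

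**Figure D5:**
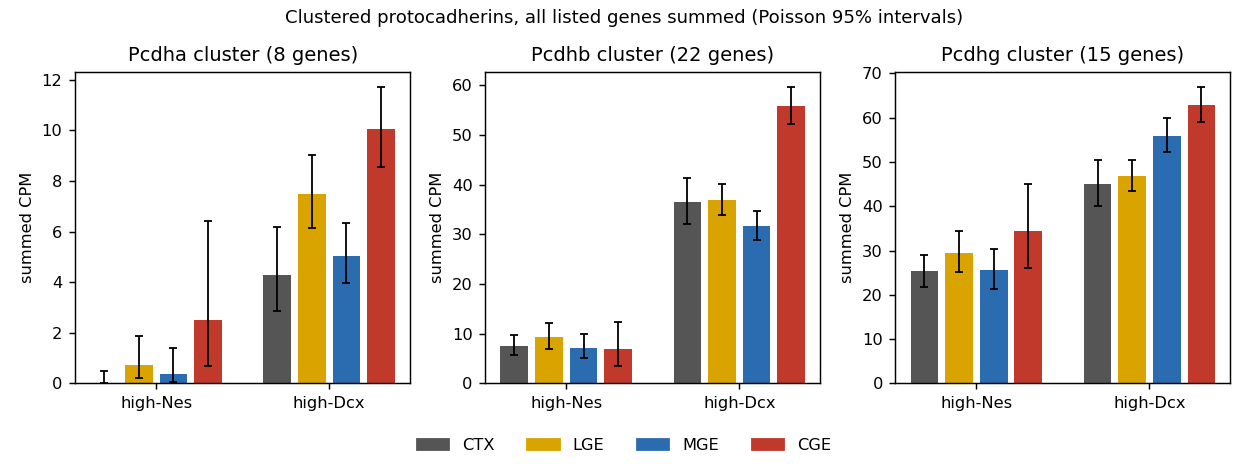
Summed CPM of the 8 Pcdha, 22 Pcdhb and 15 Pcdhg genes of the count tables in high-Nes and high-Dcx cells. Cells past both limits were counted in both, with 1 bar per library from 0 and exact Poisson 95% intervals of counting error. In each panel the 4 high-Dcx bars lie above the 4 high-Nes bars, and CGE is the tallest high-Dcx bar (55.9 CPM for Pcdhb).

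Genes of proteins that work with cadherins were called in both directions, as were 27.5% of all genes tested in each, and nothing particular to these short lists is read from their counts. Among the catenins, which link cadherins to actin, Jup (plakoglobin) rose by 2.56 ± 0.42 and Ctnna2 (the neural alpha-catenin) by 1.54 ± 0.36, and Ctnna1 (the epithelial alpha-catenin) fell by 1.62 and Ctnnb1 (beta-catenin) by 0.49 on the log2 scale, 2 and 2 of 6 tested. Of 8 junction partners tested, 4 fell and 0 rose, also at an unadjusted p and by DESeq2, led by Plekha7 (fell by 4.40) and Shroom3 (fell by 2.75), both at apical junctions. Large and atypical cadherins rose in 4 of 10 cases, led by Celsr3 (3.97 ± 0.32) and Clstn3 (2.03 ± 0.29), and fell in 2, Celsr1 (fell by 3.25) and Fat1 (fell by 1.63). Of the 9 WAVE complex genes, 4 rose, led by Cyfip2 (1.51 ± 0.35) and Wasf1 (0.56 ± 0.09), and 3 fell, led by Wasf2 (fell by 1.28) and Wasf3 (fell by 1.05). Of 7 shedding proteases, which cut cadherins at the surface, Adam17 fell by 1.25 and 0 rose, also at an unadjusted p and by DESeq2. Of 9 regulators of the protocadherin clusters tested, 5 fell, led by Dnmt3b (fell by 1.14), a DNA methyltransferase, and Stag2 (fell by 1.12), a cohesin subunit, and 0 rose by edgeR or DESeq2, while 1 did at an unadjusted p. Adjusted p-values of the genes named here were at most 0.019 in edgeR. The median log2 fold changes were 0.29 for catenins, -1.32 for junction partners, 0.51 for large and atypical cadherins, 0.04 for WAVE genes, 0.20 for proteases and -0.44 for the cluster regulators, against 0.0090 over all genes.

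Summed over the 18 genes, CGE had the highest level in both classes. High-Nes cells had 465.5, 557, 466 and 784 CPM in CTX, LGE, MGE and CGE, and high-Dcx cells 737, 518, 466 and 815 in CTX, LGE, MGE and CGE. From the first to the second class the sum without cells past both limits was 1.6 times [1.53–1.67] higher in CTX, 0.911 times [0.872–0.951] in LGE, 1.00 times [0.955–1.05] in MGE and 1.05 times [0.989–1.12] in CGE. At 3000 UMIs per cell, a cell held a UMI of 1.15 to 1.87 of the 18 genes on average. The share of cells with 3 or more of them was 8.60%, 14.7%, 11.8% and 29.3% in CTX, LGE, MGE and CGE high-Nes cells, and 24.97%, 11.6%, 9.07% and 26.2% in high-Dcx cells, and from 12.1% to 28.6% of cells in a sum held none. The values above therefore describe sums of cells and not the full set of these genes in any single cell.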

How the data were processed

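The authors deposited, for each of 4 droplet libraries, a table of whole UMI counts by gene and barcode. The software was Cell Ranger on mm10 (3.0.2 in the file headers and 3.0.0 in the submitters' processing notes). The annotation release is not given in the sources used here, and positions came from GENCODE M21 by gene ID (42462 of 43346 matched). The labels describe a sort for live cells and the methods of the study none for wild-type cells, which was not settled. Cells had more than 1500 and fewer than 4500 genes, under 5% mitochondrial and 1% Hbb UMIs, and simulated doublets were removed at 0.8% per 1000 barcodes (122 to 275 per library). Levels were CPM of summed UMIs with exact Poisson or Clopper-Pearson intervals. The floor for a count of 0 was 3 counts, and there was no test between regions. The classes were tested with edgeR 4.0.16 (TMM, filterByExpr), tested on simulated data, in R 4.3.3. The other tools were DESeq2 1.42.0 and Python 3.11.15. Alternatives were other gates, thinning, kept doublets, no upper gene limit, removal of non-neural or glutamatergic cells, cells past both gates left out, other scalings, floors and pseudocounts, no block, and leaving out each library. Named were genes set apart or at 50 or more CPM, the 10 largest changes per direction, and the 2 largest per direction of each partner list. The members and lists were chosen with earlier results of these data known.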

Additional observations from a re-analysis of the deposited data

Results flagged for a closer look

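The change from high-Nes to high-Dcx cells ran in opposite directions in CTX and in the 3 eminences for Pcdh10, Cdh8 and Cdh11. The CTX ratio of CPM was 1.31 for Pcdh10, 8.99 for Cdh8 and 19.6 for Cdh11, and each ratio of LGE, MGE and CGE was below 1, with intervals clear of 1. This difference was not tested, since each region had 1 library.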

How the results depend on the processing

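With a gate of 2.0, 4 genes stood apart among the 4 libraries in high-Nes cells (2 at 1.5), 4 in high-Dcx cells (7) and 1 among the eminences in high-Dcx cells (5, with Cdh13 left). With a pseudocount of 10 CPM the count was 1 in each class, with and without CTX, Cdh4 in high-Nes and Cdh13 in high-Dcx cells. Of 347 ratios between libraries under an alternative, 312 moved by less than counting error and 35 by more. The libraries served as the replicate block. Without the block, 3 of the 18 genes were higher in high-Dcx cells (Pcdh7 and Pcdh17 lost), 14 of all 80 instead of 22, and 2 of 80 instead of 4 were higher in high-Nes cells. A gate of 2.0 gave 8 and 2 of the 80, and cells thinned to 3000 UMIs gave 10 and 1 of the 80, and 1 of the 18 higher in high-Nes cells, with fewer genes tested in both. Leaving out 1 library gave 4 to 5 of the 18 and 14 to 23 of the 80 higher in high-Dcx cells, and 0 to 5 and 0 to 7 higher in high-Nes cells. The 0 of 18 came without LGE and without MGE, each with 1 at an unadjusted p (edgeR; 2 and 3 of the 80), while the 5 came without CTX. Pcdh9, Pcdhgc4, Pcdhb7 and Pcdhb17 were called under 13 of 13 alternatives. The log2 fold change of Cdh8 (-0.32) became 0.046 with thinning and ran from -1.23 (without CTX) to 0.33 (without MGE) when 1 library was left out, and that of Pcdh19 (-0.35) from -0.63 (without MGE) to 0.018 (without CTX). Neither gene was called with all 4 libraries. Of 432 single-gene folds, 388 kept the side of the threshold and were counted as unchanged in direction. For genes not called, with a log2 fold change under 0.25 in size, a change of direction was not counted. The cause of the other changes was not tested. Without the upper gene limit, Pcdh7, Cdh8 and Pcdh19 no longer stood apart in high-Dcx cells, and Pcdh19 also not with doublets kept, TMM factors or thinning. Depth limits genes below about 10 CPM, most of all in the CGE high-Nes sum.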
